A study of Rattus norvegicus with 30 samples.

Results

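Genes of the immediate-early response, of feedback on the MAP kinase (MAPK) cascade and of the fibroblast growth factor (FGF) family were followed in rat bone marrow mesenchymal stem cells (BMSCs) entering osteogenesis, adipogenesis or chondrogenesis. They were taken by gene name, as the names in the families Fos, Jun, Egr, Ier, Dusp, Spry, Spred, Nr4a, Fgf, Fgfr, Mapk and Map2k together with Atf3, Myc, Mycn, Etv1, Etv4, Etv5, Srf and Errfi1. This gave 52 of the 9999 gene names in the deposited tables, and 26 of the 52 had a level of at least 1 CPM (read counts scaled to a common library total) in at least 3 samples and were tested. Fos, Fosb, Fosl1, Fosl2, Junb, Jund, Egr1, Egr2, Egr3, Ier2, Ier5, Nr4a2, Nr4a3, Srf, Dusp1, Dusp5, Spry1, Spry4, Spred1, Errfi1, Etv4, Etv5, Fgf2, Fgf7, Fgf10, Fgfr2, Fgfr3, Fgfr4, Map2k1 and Map2k2 were not analysed here.

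The cells were BMSCs of Sprague Dawley rats, grown from the marrow of young females and used undifferentiated (0 h) or after 3, 12 or 72 h in osteogenic, adipogenic or chondrogenic medium, with 3 samples in each of the 10 groups and 30 in all. No gene was altered in any group, the composition of the commercial media was not given, and each sample was a pool of cultures, so that p-values measure the spread between these pools. All 3 lineages were set against the same 3 samples at 0 h, and uninduced cells kept for 3, 12 or 72 h were not analysed here, so that the medium and the time since the change of medium cannot be told apart in a comparison with 0 h. In such bulk samples, fewer cells of a type and less RNA per cell cannot be told apart.

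The samples had 3899609 to 9046719 reads (median 6579543), and 3 reads, taken as the floor, corresponded to 0.332 to 0.769 CPM. Of the stromal markers, Thy1, Cd44 and Itgb1 were abundant (Thy1 387 to 8280 CPM), whereas Eng and Vcam1 did not exceed 0.663 CPM, Nt5e was not analysed here, and the 4 listed blood markers summed to at most 2.06 CPM in any sample, with Lyz2, the one tested, higher in adipogenesis at 72 h (1.35 on the log2 scale). Of the 5 endothelial markers Tek was tested, at no more than 5.57 CPM, and Kdr reached at most 4 reads; Tek rose in osteogenesis at 3 h (1.33) and 72 h (2.12) and adipogenesis at 3 h (1.68) and did not pass in chondrogenesis (0.87 at 3 h). Sox9 and Comp, the 2 chondrogenic markers tested, rose in chondrogenesis at 72 h (log2 fold change 4.72 and 4.43), as did the osteogenic marker Ibsp (6.10). In osteogenesis at 3 h 1 of these 2 also rose (11.7% of all tested genes rose there). The other listed chondrogenic markers, Sox6, Acan, Col2a1 and Col10a1, reached at most 0.892 CPM in any sample. The adipogenic marker Plin1 rose in adipogenesis at 72 h (1.57) and another, Pparg, in osteogenesis at 72 h (1.60). The abundant adipogenic marker Lpl (13.5 to 3216 CPM) fell in chondrogenesis at 72 h (-5.59). In osteogenesis Ibsp did not pass at 72 h (0.06), and the other listed osteogenic markers, Sp7, Alpl, Bglap and Spp1, reached at most 1.66 CPM in any sample. Actb and Vim, which nearly every cell uses, were listed at no more than 5.39 and 1.58 CPM, so a member listed at or near 0 was not read as silent. In 3 samples more genes lay over 2 log2 units from the other samples of the group than elsewhere, namely sample 3 of adipogenesis at 72 h (74 genes), sample 1 of adipogenesis at 12 h (24) and sample 3 of osteogenesis at 3 h (18), against 0 to 13 genes in the others, and values without them are given where they matter. CPM are not divided by gene length, and levels of different genes are therefore not compared.

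In the MAPK cascades, growth factors such as FGFs act through receptor tyrosine kinases and Ras on a chain of kinases that ends in ERK, while stress and cytokines act through other MAP2 kinases on p38 and JNK. The active kinases switch on immediate-early genes within minutes, and among the targets that follow are dual-specificity phosphatases (Dusp) and Sprouty and Spred proteins, which return the cascade to rest. FGF and MAPK signalling is well known in the skeleton, where it bears on the growth of progenitors and on the formation of cartilage, bone and fat.

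At 3 h, the feedback genes Dusp4, Dusp6 and Spry2 set chondrogenesis apart from osteogenesis and adipogenesis. Others did not: at 3 h Dusp10 overlapped between osteogenesis and chondrogenesis, and Dusp2 between adipogenesis and chondrogenesis. Dusp4, the nuclear phosphatase of ERK and other MAPKs, rose 10.2-fold in osteogenesis and 6.96-fold in adipogenesis but fell in chondrogenesis, where 0 h was 2.31-fold higher, and Dusp6, the cytoplasmic phosphatase of ERK, moved in the same directions. Spry2, an inhibitor of receptor tyrosine kinase signalling, fell at all 3 times of chondrogenesis and rose at 12 h of osteogenesis. Tek rose in the groups where Dusp4 and Dusp6 rose at 3 h, and the part of endothelial cells in these rises was not tested. Of the 26 tested genes, 19 (73.1%) passed the test (limma on log2(CPM + 1), adjusted p under 0.05, fold change of at least 1 in size on the log2 scale) in at least 1 of the 9 comparisons with 0 h, against 53.2% of all tested genes, in 23 rises and 26 falls. Dusp4, Dusp6, Dusp10 and Spry2 were the 4 genes that passed in both directions, and Dusp12, Dusp15, Dusp22, Fgf1, Fgfr1op, Mapk14 and Mapk6 were the 7 that never passed, with log2 fold changes between -0.75 and 0.76. The colour map of the fold changes shows these calls gene by gene.

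**Figure D1:**
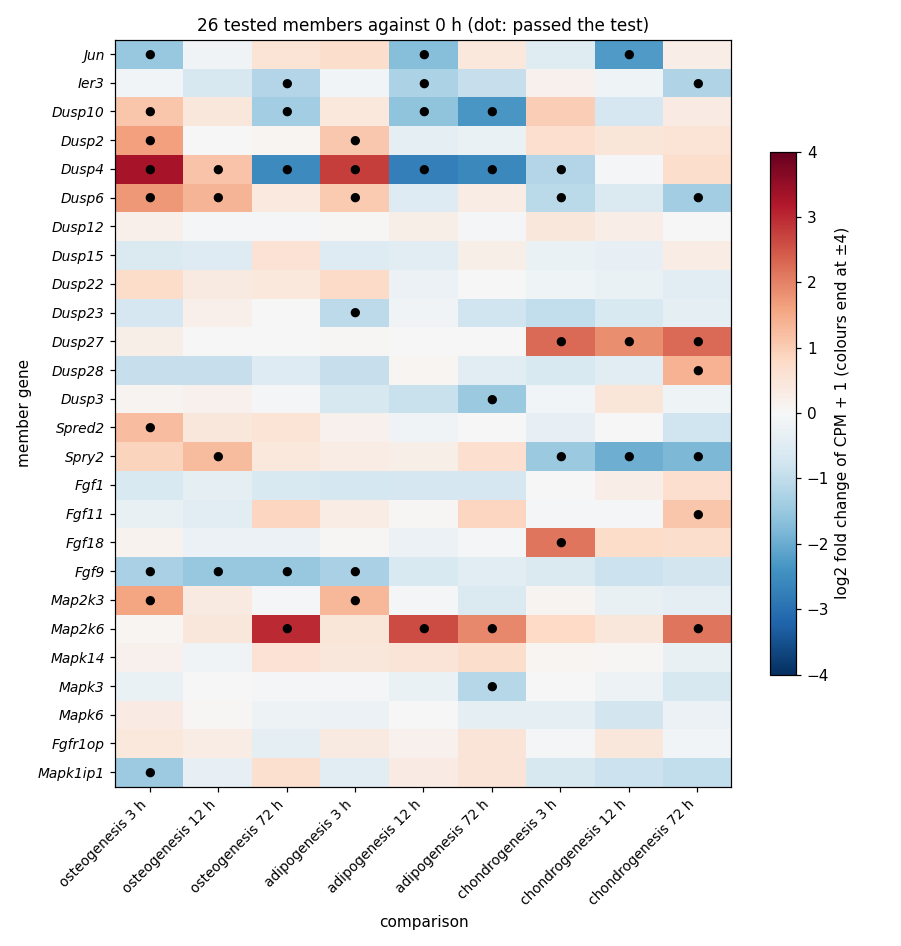
Log2 fold change of CPM + 1 against 0 h (colour, ending at ±4) for the 26 tested genes (rows, by role) in the 9 groups (columns), with a dot where the test was passed. The deepest red is Dusp4 in osteogenesis at 3 h (3.30), and the blue cells with a dot of Dusp10 lie in adipogenesis at 12 and 72 h and osteogenesis at 72 h, those of Dusp4 in the same groups and in chondrogenesis at 3 h (-1.16).

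Counts were read against the share of all 4363 tested genes that passed in the same direction, where 1 of the 26 is 3.85%. In osteogenesis at 3 h, 6 of the 26 rose (23.1%, against 11.7% of all tested genes) and 3 fell (11.5% against 6.67%). In adipogenesis at 3 h 4 rose (15.4% against 12.4%) and 2 fell (7.69% against 6.42%), and in chondrogenesis at 3 h 2 rose (7.69% against 13.1%) and 3 fell (11.5% against 4.88%). At 12 h, 3 rose and 1 fell in osteogenesis (backgrounds of 14.7% and 7.15%), 1 rose and 4 fell in adipogenesis (8.14% and 5.55%), and 1 rose and 2 fell in chondrogenesis (9.44% and 5%). At 72 h, 1 rose and 4 fell in osteogenesis (7.2% and 5.29%), 1 rose and 4 fell in adipogenesis (6.19% and 9.08%), and 4 rose and 3 fell in chondrogenesis (11.6% and 6.37%). For the 26 genes, the median log2 fold change lay between -0.20 (adipogenesis at 12 h) and 0.14 (osteogenesis at 3 h), and for all tested genes between -0.05 (adipogenesis at 72 h) and 0.21 (chondrogenesis at 3 h). The balance of rises and falls depended on the pseudocount and the scaling. With a pseudocount of 0.1 there were 6 rises and 7 falls in osteogenesis at 3 h, 3 and 4 at 12 h, and 5 and 5 in adipogenesis at 3 h. With median-ratio scaling, which shifted the median of all genes by -0.27 to 0.34 among the 24 comparisons, there were 5 rises and 4 falls in osteogenesis at 3 h, 1 and 2 at 12 h, 2 and 3 in adipogenesis at 3 h, and 2 and 3 at 72 h. With edgeR on the recovered reads there were 5 and 5, 0 and 5, and 3 and 5 in the first 3 of these, 2 and 4 in osteogenesis at 72 h, and 1 and 5 in chondrogenesis at 12 h; of the rises in osteogenesis at 12 h, 4 had an unadjusted p under 0.05 in edgeR.

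Among the MAP kinase phosphatases, Dusp4 changed most. Its values at 0 h were 36.4, 37.9 and 36.7 CPM in the 3 samples. In osteogenesis they were 338, 331 and 468 CPM at 3 h, 84.7, 85.3 and 80.0 CPM at 12 h, and 4.33, 6.55 and 5.73 CPM at 72 h. In adipogenesis they were 251, 248 and 273 CPM at 3 h, 3.66, 4.42 and 6.48 CPM at 12 h, and 3.92, 3.90 and 9.82 CPM at 72 h. The course was thus a rise and a fall in both, with every sample below 0 h from 12 h in adipogenesis and at 72 h in osteogenesis. In chondrogenesis, Dusp4 was at 15.7, 17.5 and 14.8 CPM at 3 h, 31.1, 42.5 and 33.7 CPM at 12 h, and 61.5, 65.7 and 54.7 CPM at 72 h. Here the order was the reverse, with every 3 h sample below and every 72 h sample above the 0 h samples, and the 12 h samples on both sides of them.

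The log2 fold change of Dusp4 against 0 h was 3.30 ± 0.21 (SE, adjusted p = 1.61e-13) in osteogenesis at 3 h, 1.15 (adjusted p = 4.66e-05) at 12 h and -2.55 (adjusted p = 6.31e-11) at 72 h. With median-ratio scaling the 12 h value was 0.82 and with edgeR 0.77, below the threshold of 1. In adipogenesis it was 2.76 (adjusted p = 7.50e-12) at 3 h, -2.73 (adjusted p = 1.52e-11) at 12 h and -2.57 (adjusted p = 3.94e-11) at 72 h. In chondrogenesis Dusp4 fell at 3 h (-1.16, adjusted p = 4.76e-05), and the values at 12 h (-0.06) and 72 h (0.69, adjusted p = 0.0107) did not pass. When the 10 groups were put in order of the mean, osteogenesis at 3 h, adipogenesis at 3 h, osteogenesis at 12 h and chondrogenesis at 72 h came first, with no overlap between neighbours. Next came 0 h and chondrogenesis at 12 h, which overlapped, then chondrogenesis at 3 h, and at the bottom adipogenesis at 72 h, osteogenesis at 72 h and adipogenesis at 12 h, whose samples overlapped from each neighbour to the next.

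**Figure D2:**
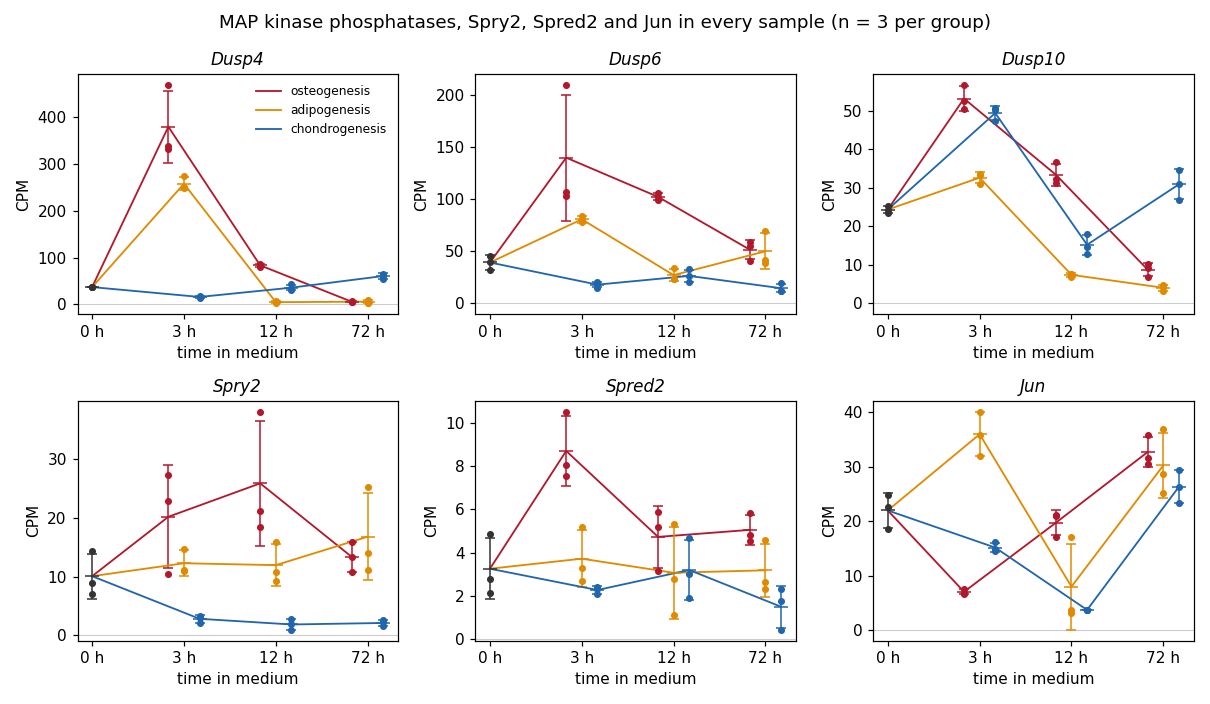
CPM (y axis, linear, one scale per gene) of Dusp4, Dusp6, Dusp10, Spry2, Spred2 and Jun at 0, 3, 12 and 72 h (x axis, evenly spaced). Points are samples, horizontal marks with bars are the mean ± SD of 3 samples, and lines join the means of each lineage from the shared 0 h samples in grey; Dusp4 peaks at 3 h in osteogenesis and adipogenesis and lies lowest at 3 h in chondrogenesis, at 15.7, 17.5 and 14.8 CPM.

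Dusp6 was at 32.2, 39.3 and 45.8 CPM at 0 h, and in osteogenesis at 107, 103 and 209 CPM at 3 h, 102, 98.8 and 106 CPM at 12 h, and 54.6, 40.9 and 58.6 CPM at 72 h. In adipogenesis it was at 83.9, 77.9 and 79.7 CPM at 3 h, and from 23.5 to 69.7 CPM at the later times, where the samples overlapped with 0 h. In chondrogenesis it was at 15.0, 20.0 and 18.7 CPM at 3 h and 12.1, 19.0 and 12.2 CPM at 72 h. All osteogenic samples at 3 and 12 h lay above the highest 0 h sample, and all chondrogenic samples at 3 and 72 h below the lowest. The rises were 1.74 ± 0.24 (adjusted p = 3.94e-07) and 1.37 (adjusted p = 1.46e-05) on the log2 scale in osteogenesis at 3 and 12 h and 1.04 (adjusted p = 6.38e-04) in adipogenesis at 3 h. The falls in chondrogenesis were -1.08 (adjusted p = 3.80e-04) at 3 h and -1.39 (adjusted p = 1.63e-05) at 72 h. Several of these lay close to the threshold: the rise in adipogenesis was 0.79 with median-ratio scaling, 0.76 with edgeR and 0.91 without sample 1 at 0 h, the rise in osteogenesis at 12 h was 0.98 with edgeR, and the fall in chondrogenesis at 3 h was -0.97 without its sample 1 and -0.96 without sample 3 at 0 h.

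Dusp10, a phosphatase that prefers p38 and JNK over ERK, followed another order. It was at 24.4, 23.4 and 25.3 CPM at 0 h and at 50.5, 52.5 and 56.7 CPM in osteogenesis, 31.0, 33.7 and 33.3 CPM in adipogenesis and 47.4, 50.2 and 50.8 CPM in chondrogenesis at 3 h. All 9 of these lay above the 0 h samples, but only osteogenesis passed, at 1.10 ± 0.15 on the log2 scale (adjusted p = 8.48e-07), against 0.41 in adipogenesis and 0.99 in chondrogenesis (adjusted p = 4.30e-06, short of the fold threshold). The call in osteogenesis was lost with median-ratio scaling (0.86) and edgeR (0.88). Later Dusp10 fell in adipogenesis, to 7.61, 7.73 and 6.85 CPM at 12 h and 4.63, 3.19 and 4.28 CPM at 72 h, and in osteogenesis, to 9.10, 10.1 and 6.93 CPM at 72 h. These falls were -1.60 (adjusted p = 1.35e-09), -2.34 (adjusted p = 2.32e-13) and -1.40 (adjusted p = 2.02e-08), while in chondrogenesis at 72 h the gene was at 26.9, 34.7 and 31.1 CPM (0.33, adjusted p = 0.101).

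Dusp2, an inducible nuclear phosphatase of MAPKs, had few reads. It was at 0.716, 0 and 0.607 CPM at 0 h, and rose at 3 h of osteogenesis to 1.88, 3.48 and 5.39 CPM (1.63, adjusted p = 5.62e-05) and at 3 h of adipogenesis to 1.22, 2.83 and 2.08 CPM (1.08, adjusted p = 0.00468). The rise in adipogenesis was 0.98 with median-ratio scaling, 0.90 without its sample 2 and 0.84 without sample 2 at 0 h. In chondrogenesis at 3 h the values were 2.40, 0.440 and 1.35 CPM (0.69, adjusted p = 0.072) and overlapped with 0 h. The fifth gene of the class, Dusp9, was not tested and reached at most 8 reads in a sample.

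The sequences before the start sites are shown for 5 of the 6 genes that passed the test as rises at 3 h of osteogenesis (Dusp4 was not matched), 3 of which (Dusp6, Dusp2 and Map2k3) also rose at 3 h of adipogenesis, to set the shared timing beside what these windows hold. They are the 250 bases upstream of the start in RefSeq, assembly GRCr8, plus strand in each case: chr7:35979354-35979603 for Dusp6, chr13:98145643-98145892 for Dusp10, chr3:135009386-135009635 for Dusp2, chr10:46107389-46107638 for Map2k3 and chr14:98350327-98350576 for Spred2. Capitals mark the CCAAT box (CCAAT, read as ATTGG on the other strand) and the E-box CACGTG.
Dusp6: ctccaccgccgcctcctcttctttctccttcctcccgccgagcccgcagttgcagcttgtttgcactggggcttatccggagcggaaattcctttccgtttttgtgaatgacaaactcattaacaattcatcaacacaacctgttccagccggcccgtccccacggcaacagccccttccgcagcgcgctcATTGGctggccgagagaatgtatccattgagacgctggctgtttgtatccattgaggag
Dusp10: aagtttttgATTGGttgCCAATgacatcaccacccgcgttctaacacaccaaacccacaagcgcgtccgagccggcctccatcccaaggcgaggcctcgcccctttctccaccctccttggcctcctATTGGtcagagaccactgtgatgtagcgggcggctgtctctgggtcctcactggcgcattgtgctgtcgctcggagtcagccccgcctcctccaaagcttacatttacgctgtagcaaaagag
Dusp2: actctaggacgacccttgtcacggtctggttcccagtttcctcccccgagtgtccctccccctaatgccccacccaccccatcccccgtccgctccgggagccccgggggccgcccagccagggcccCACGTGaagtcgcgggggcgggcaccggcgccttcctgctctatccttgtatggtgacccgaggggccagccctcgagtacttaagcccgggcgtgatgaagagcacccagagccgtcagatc
Map2k3: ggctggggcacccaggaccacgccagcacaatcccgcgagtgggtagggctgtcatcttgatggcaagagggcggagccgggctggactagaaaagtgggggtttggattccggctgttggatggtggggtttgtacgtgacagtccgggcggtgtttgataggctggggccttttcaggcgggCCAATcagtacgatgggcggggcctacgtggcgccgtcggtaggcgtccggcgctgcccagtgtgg
Spred2: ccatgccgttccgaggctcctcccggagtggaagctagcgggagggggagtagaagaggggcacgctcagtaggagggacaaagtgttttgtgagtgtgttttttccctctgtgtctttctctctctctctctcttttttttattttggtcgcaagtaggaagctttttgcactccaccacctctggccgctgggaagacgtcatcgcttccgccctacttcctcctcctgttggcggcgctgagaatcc
The CCAAT box stood at position -59 from the start in Dusp6, at -241, -233 and -123 in Dusp10 and at -66 in Map2k3, and 34% of all 33469 windows of this length held at least 1. Dusp2 held none and had the E-box at -123, a motif in 5.59% of all windows, and Spred2 held neither. None of the 5 windows held the cyclic AMP response element TGACGTCA, the AP-1 site TGACTCA, the ETS site CCGGAAGT (each searched on both strands) or a CArG box, which occurred in 1.59%, 4.05%, 3.1% and 1.5% of all windows. Of the 22 tested genes with a window, 1 held any of these last 4 motifs, Mapk1ip1 with the cyclic AMP response element at -88, and 7 held a CCAAT box. RefSeq windows were matched for 40 of the 52 genes.

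Of the inhibitors that act at the receptor and at Ras, Spry2 was at 14.3, 6.96 and 8.95 CPM at 0 h. In chondrogenesis it was at 3.00, 3.38 and 2.09 CPM at 3 h, 2.74, 1.87 and 0.951 CPM at 12 h, and 2.56, 1.55 and 2.22 CPM at 72 h, all 9 samples below the lowest at 0 h. The falls were -1.50 ± 0.33 (adjusted p = 5.03e-04), -1.95 (adjusted p = 2.10e-05) and -1.79 (adjusted p = 6.43e-05). In osteogenesis Spry2 was at 22.9, 27.3 and 10.4 CPM at 3 h (0.89, adjusted p = 0.0338). Only sample 3 there, one of the samples that stood apart, overlapped with 0 h. At 12 h of osteogenesis Spry2 was at 18.4, 38.1 and 21.2 CPM, above all 0 h samples (1.26, adjusted p = 0.00246). The rise at 12 h fell short with median-ratio scaling (0.95), with edgeR (0.95) and without its sample 2 (0.96). In adipogenesis Spry2 was between 9.21 and 25.2 CPM and passed at no time.

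Spred2, which binds Ras and keeps it from activating Raf, was at 2.15, 2.79 and 4.85 CPM at 0 h and rose at 3 h of osteogenesis to 7.52, 8.06 and 10.5 CPM (1.22 ± 0.35, adjusted p = 0.0055). Its 3 samples there lay above every other sample of the series. In the remaining groups Spred2 was between 0.445 and 5.88 CPM and passed at no time. Spred3, which was not tested, had at most 8 reads and Spry3 at most 1.

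Jun, the AP-1 subunit and the one of these immediate-early factors with ample reads, fell at 3 h in osteogenesis and at 12 h in adipogenesis and chondrogenesis. It was at 22.6, 24.8 and 18.5 CPM at 0 h. In osteogenesis it was at 6.89, 7.58 and 6.64 CPM at 3 h, 21.1, 17.0 and 21.0 CPM at 12 h, and 30.6, 31.7 and 35.9 CPM at 72 h. It was low in all 3 osteogenic samples at 3 h and back among the 0 h values by 12 h. In adipogenesis it was at 31.9, 40.1 and 35.8 CPM at 3 h, 17.1, 3.13 and 3.70 CPM at 12 h, and 28.7, 36.9 and 25.2 CPM at 72 h. In chondrogenesis it was at 14.5, 14.8 and 16.1 CPM at 3 h, 3.76, 3.74 and 3.64 CPM at 12 h, and 23.3, 29.4 and 26.2 CPM at 72 h. Both of these lineages had their lowest values at 12 h, with the adipogenic samples uneven. At 72 h every sample of the 3 lineages lay at 23.3 CPM or above.

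The falls of Jun against 0 h were -1.51 ± 0.30 (adjusted p = 1.28e-04) in osteogenesis at 3 h, -1.69 (adjusted p = 3.77e-05) in adipogenesis at 12 h and -2.28 (adjusted p = 3.48e-07) in chondrogenesis at 12 h. Without sample 1 of adipogenesis at 12 h, one of the samples that stood apart, the fall there was -2.37, and in a fit on the 6 samples of that comparison alone it did not pass (adjusted p = 0.0812). The values at 3 h of adipogenesis (0.69, adjusted p = 0.0633) and at 72 h (0.56 in osteogenesis, 0.44 in adipogenesis and 0.25 in chondrogenesis) did not pass. Chondrogenesis at 3 h did not pass either, although every Jun sample there lay below every 0 h sample.

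Ier3, an immediate-early gene linked to cell survival, was at 1.29, 0.836 and 4.25 CPM at 0 h, of which the third value lay well above the others. It had 43 reads in all at 0 h against 5 in osteogenesis at 72 h, 3 in adipogenesis at 12 h and 3 in chondrogenesis at 72 h. The 0 h level was 12.2 times that of adipogenesis at 12 h (95% interval 3.91 to 61.5, counting error only) and 8.92 times that of chondrogenesis at 72 h (2.86 to 44.96). The 3 falls passed (-1.16, -1.27 and -1.20, adjusted p = 0.00988, 0.00405 and 0.00596), but none did without sample 3 at 0 h (-0.71, -0.82 and -0.75) or in a fit on 6 samples (adjusted p = 0.067, 0.0682 and 0.0517).

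Of the other immediate-early factors, Nr4a1 reached 12 reads in 1 sample at 0 h and at most 5 elsewhere, Mycn 9 reads in chondrogenesis at 3 h, Egr4 4, Myc 4 and Atf3 2. Etv1, a PEA3 factor induced by FGF in many tissues, reached 1 read. None of these 6 was tested, and 14 of the 52 genes had at most 3 reads in every sample.

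Among the kinases, the pair that activates p38 moved at opposite ends of the time course. Map2k6 was at 0.143, 0 and 0 CPM at 0 h, which was 1 read in all. It rose to 4.39, 5.89 and 5.92 CPM in adipogenesis at 12 h and stood at 5.70, 3.19 and 1.27 CPM there at 72 h. It rose to 7.91, 7.18 and 6.63 CPM in osteogenesis and 4.10, 4.42 and 2.45 CPM in chondrogenesis at 72 h. Every sample of these 4 groups lay above every sample at 0 and 3 h and above all those of osteogenesis and chondrogenesis at 12 h. On pooled reads, osteogenesis at 72 h was 150 times 0 h (95% interval 26.5 to 5977), adipogenesis 110 times at 12 h (19.3 to 4406) and 68.5 times at 72 h (11.8 to 2752), and chondrogenesis 75.5 times at 72 h (12.9 to 3045). These wide intervals cover counting error only and reflect the single read at 0 h. The fitted log2 fold changes, which the pseudocount of 1 holds down, were 2.98 ± 0.31 (adjusted p = 4.72e-09), 2.60 (adjusted p = 5.89e-08), 1.93 (adjusted p = 7.71e-06) and 2.13 (adjusted p = 1.38e-06).

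Map2k3 did the reverse in 2 of the lineages. It was at 0.859, 1.39 and 1.06 CPM at 0 h and rose at 3 h to 3.45, 3.63 and 11.1 CPM in osteogenesis (1.59 ± 0.37, adjusted p = 8.11e-04) and 7.30, 4.41 and 2.23 CPM in adipogenesis (1.33, adjusted p = 0.00431). The samples of both groups lay above those at 0 h but were uneven, and the rise in adipogenesis was 0.997 without its sample 1, just under the threshold. In chondrogenesis at 3 h Map2k3 was at 1.65, 0.734 and 1.48 CPM (0.10), and by 12 and 72 h no lineage passed.

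**Figure D3:**
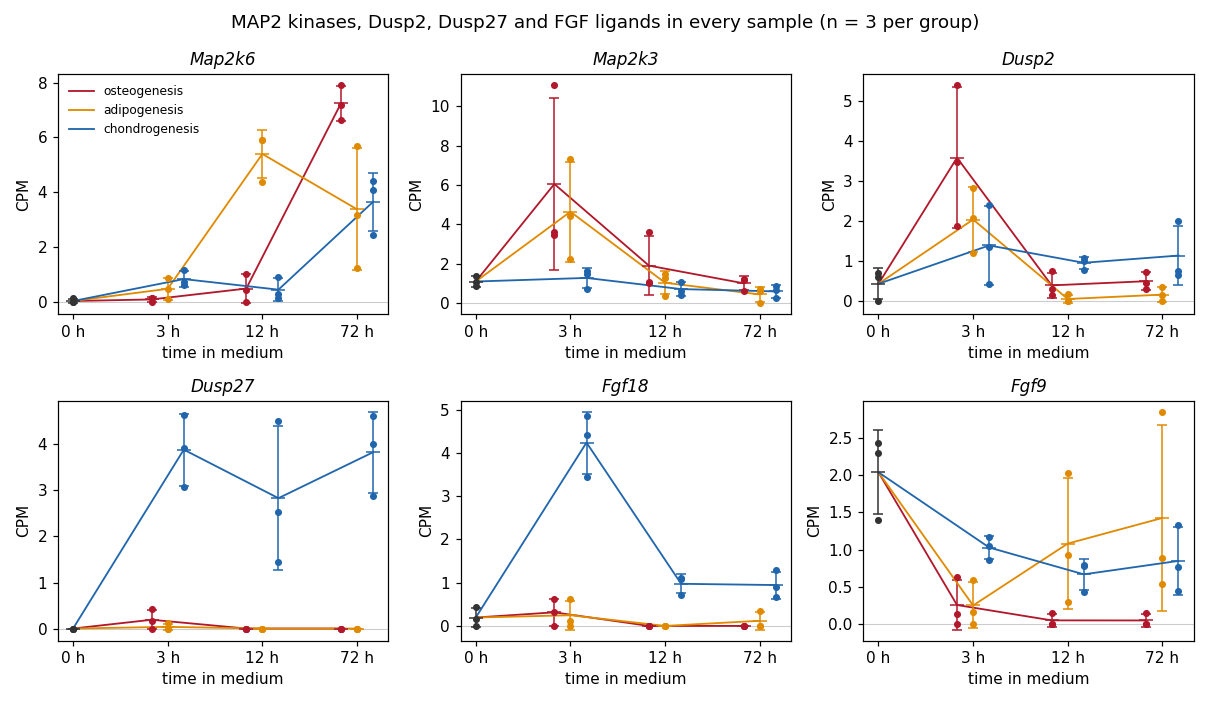
CPM (y axis, linear, one scale per gene) of Map2k6, Map2k3, Dusp2, Dusp27, Fgf18 and Fgf9 at 0, 3, 12 and 72 h (x axis, evenly spaced). Points are samples and marks with bars the mean ± SD of 3 samples (bars that reach below 0 are an effect of the SD, no value being negative), with lines through the means; Map2k6 lies highest late, Map2k3 and Dusp2 at 3 h, and Dusp27 and Fgf18 in chondrogenesis.

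Mapk3, the kinase ERK1, passed in 1 group. It was at 726, 705 and 719 CPM at 0 h and at 366, 409 and 232 CPM in adipogenesis at 72 h, where it fell (-1.13 ± 0.15, adjusted p = 3.77e-07). Sample 3 there, which stood apart over all genes, was the lowest; without it the value was -0.89 (adjusted p = 1.60e-06), and with median-ratio scaling -0.94, both short of the fold threshold. In chondrogenesis at 72 h Mapk3 was at 471, 477 and 441 CPM, below every 0 h sample (-0.63, adjusted p = 0.00115), without reaching a log2 change of 1. Thy1 fell beside it in adipogenesis at 72 h (-4.24, adjusted p = 1.04e-22), and the part of a changed cell population in the fall of Mapk3 was not tested. Mapk14, the p38 alpha kinase, was between 2.21 and 9.22 CPM and Mapk6 between 0 and 2.53 CPM, and neither passed against 0 h.

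The FGF ligands that were tested, 4 of 13, had low levels: Fgf18 and Fgf11 rose in chondrogenesis, Fgf9 fell in osteogenesis and, at 3 h only, in adipogenesis, and Fgf1 did not pass against 0 h. Fgf18, a ligand that acts on growing cartilage and bone, was at 0.430, 0 and 0.152 CPM at 0 h and rose in chondrogenesis at 3 h to 3.45, 4.84 and 4.43 CPM. This was 92 reads against 4, a ratio of 22.1 (95% interval 8.34 to 82.8), fitted as 2.14 ± 0.21 on the log2 scale (adjusted p = 8.01e-10). By 12 h it had dropped to 0.722, 1.09 and 1.11 CPM and at 72 h it stood at 1.28, 0.663 and 0.889 CPM, still above each 0 h sample but short of the threshold (0.74 and 0.71). In osteogenesis and adipogenesis Fgf18 did not exceed 0.629 CPM.

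Fgf9, which signals to mesenchyme in many organs, was at 2.29, 1.39 and 2.43 CPM at 0 h and went down in osteogenesis. It was at 0, 0.632 and 0.138 CPM at 3 h, 0, 0 and 0.152 CPM at 12 h, and 0.149, 0 and 0 CPM at 72 h, below every 0 h sample at each time. The 12 h and 72 h groups held 1 read each against 42 at 0 h, a ratio of 40.2 (6.84 to 1627) and 40.0 (6.79 to 1616). The falls were -1.29 (adjusted p = 6.26e-04), -1.52 (adjusted p = 7.53e-05) and -1.52 (adjusted p = 1.48e-04), and Fgf9 also fell in adipogenesis at 3 h, to 0, 0.157 and 0.595 CPM (-1.29, adjusted p = 6.18e-04). Later in adipogenesis Fgf9 was at 1.08 ± 0.88 CPM (12 h) and 1.42 ± 1.25 CPM (72 h, mean ± SD) and did not pass. In chondrogenesis it was between 0.433 and 1.33 CPM, below each 0 h sample, and passed at no time.

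Fgf11, which belongs to the FGF homologous factors that stay inside the cell, rose in chondrogenesis at 72 h from 0.430, 0.279 and 0.303 CPM to 1.54, 2.65 and 1.56 CPM (1.10 ± 0.22, adjusted p = 1.20e-04; 0.93 without its sample 2). At 72 h of osteogenesis (0.86, adjusted p = 0.00273) and adipogenesis (0.85, adjusted p = 0.00234) its samples also lay above 0 h, short of the fold threshold. Fgf1, the acidic FGF, had log2 fold changes of -0.69 to 0.69 against 0 h. Among the 9 ligands that were not tested, Fgf23 reached 8 reads and Fgf14 6. The receptor Fgfr1 was listed at no more than 4 reads in a sample and Fgfrl1 at 1.

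Of the atypical phosphatases, Dusp27, a muscle protein whose phosphatase domain is held to be inactive, was listed at 0 in all 3 samples at 0 h and rose in chondrogenesis. It was at 4.65, 3.08 and 3.93 CPM at 3 h, 1.44, 4.52 and 2.53 CPM at 12 h, and 4.62, 2.87 and 4.003 CPM at 72 h. Against a floor of 3 reads per library at 0 h, it was at least 8.95-fold, 6.52-fold and 8.82-fold higher, and the test was passed at each time (adjusted p = 4.72e-10, 3.73e-08 and 5.64e-10). Outside chondrogenesis it had 4 reads in osteogenesis at 3 h, 1 in adipogenesis at 3 h and 0 in the other groups.

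Dusp3, an enzyme that acts on ERK and JNK, was at 36.0, 40.5 and 39.9 CPM at 0 h and fell in adipogenesis at 72 h to 18.0, 20.4 and 5.86 CPM (-1.50 ± 0.27, adjusted p = 3.82e-05). Without sample 3 of that group, one of those that stood apart, the value was -0.98 (adjusted p = 2.90e-04), and in a fit on 6 samples the adjusted p was 0.0585. Dusp28 rose in chondrogenesis at 72 h from 1.29, 0.418 and 2.12 CPM to 5.64, 3.54 and 4.89 CPM (1.38, adjusted p = 4.57e-04). With a pseudocount of 0.1 the fold change was larger (2.009) but the adjusted p did not pass (0.0652). Dusp23 fell in adipogenesis at 3 h, from 4.15, 5.71 and 5.004 CPM to 1.99, 1.73 and 1.93 CPM (-1.04, adjusted p = 0.00542), and this dropped under the fold threshold without its sample 2 (-0.9998) or sample 2 at 0 h (-0.95). Mapk1ip1, whose name alone placed it here, fell in osteogenesis at 3 h from 6.88, 7.24 and 9.40 CPM to 3.76, 3.32 and 0.553 CPM (-1.47, adjusted p = 6.80e-04), with -0.95 (adjusted p = 0.0149) once sample 3 of that group was left out and an adjusted p of 0.0641 in a fit on 6 samples.

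From one time point to the next, the largest count was in adipogenesis between 3 and 12 h, where 9 of the 26 genes passed (34.6%, against 12.9% of all tested genes). Dusp4 fell by 5.49 on the log2 scale (adjusted p = 1.81e-18), Jun by 2.38 (by 3.06 without sample 1 at 12 h) and Dusp6 by 1.56, together with Dusp10 (-2.003), Dusp2 (-1.49), Map2k3 (-1.41, adjusted p = 0.0519 in a fit on 6 samples) and Ier3 (-1.16, adjusted p = 0.0527 without sample 1 at 3 h), while Map2k6 (2.13) and Dusp28 (1.001, and 0.75 to 0.99 without sample 1 at 12 h or sample 1 or 3 at 3 h) rose. Between 12 and 72 h of adipogenesis only Jun passed, with a rise of 2.13 (2.81 without sample 1 at 12 h; adjusted p = 0.0521 in a fit on 6 samples), which made 1 of 26 (3.85%) against 16% of all tested genes. In osteogenesis 5 passed between 3 and 12 h (19.2% against 7.82%), led by Dusp4 (-2.15), Dusp2 (-1.66) and Jun (1.36), and 3 passed without sample 2 or sample 3 at 12 h. Between 12 and 72 h of osteogenesis 5 passed (19.2% against 23.2%), led by Dusp4 (-3.70), Map2k6 (2.51) and Dusp10 (-1.83). In chondrogenesis 4 passed between 3 and 12 h (15.4% against 7.68%), which were Jun (-1.78), Dusp10 (-1.65), Fgf18 (-1.40, and -2.007 with adjusted p = 0.0523 in edgeR) and Dusp4 (1.11, and 0.98 without sample 2 at 12 h). Between 12 and 72 h of chondrogenesis 5 passed (19.2% against 13.2%), led by Jun (2.53), Dusp28 (1.79) and Map2k6 (1.68).

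Set directly against each other at 3 h, osteogenesis and chondrogenesis differed in 8 of the 26 genes (30.8%, against 7.31% of all tested genes) and chondrogenesis and adipogenesis in 7 (26.9% against 9.35%). Dusp4 was 23.7-fold higher in osteogenesis than in chondrogenesis at that time (4.47 ± 0.21, adjusted p = 5.20e-16) and 16.1-fold higher in adipogenesis (chondrogenesis minus adipogenesis -3.93, adjusted p = 5.92e-15). Dusp6 was 7.81-fold higher in osteogenesis (2.83, adjusted p = 1.66e-10) and 4.50-fold higher in adipogenesis (-2.12, adjusted p = 3.51e-08) than in chondrogenesis. Spry2 was 7.16-fold (2.38, adjusted p = 3.10e-06) and 4.35-fold (-1.80, adjusted p = 1.36e-04) higher, and Fgf18 was lower, in the same comparisons (osteogenesis -2.01, adjusted p = 1.46e-08).

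Between osteogenesis and adipogenesis at 3 h, 3 of the 26 passed (11.5% against 7.66%). Jun was 5.11-fold higher in adipogenesis (osteogenesis minus adipogenesis -2.20, adjusted p = 2.13e-06), and this was the only one of the 3 left without sample 3 of osteogenesis, sample 2 of adipogenesis or sample 3 of adipogenesis, where Mapk1ip1 (-1.003) and Spred2 (1.06) no longer passed. Dusp4 was higher in all 3 osteogenic than in all 3 adipogenic samples at 3 h, but the log2 difference of 0.54 did not pass (adjusted p = 0.086).

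At 12 h, 7 genes passed between osteogenesis and adipogenesis (26.9% against 13.2%), 6 between osteogenesis and chondrogenesis (23.1% against 16%) and 7 between chondrogenesis and adipogenesis (26.9% against 13.6%). Dusp4 was 17.2-fold higher in osteogenesis than in adipogenesis (3.88, adjusted p = 7.85e-15) and 7.38-fold higher in chondrogenesis than in adipogenesis (2.67, adjusted p = 2.60e-11). Spry2 was 14.0-fold higher in osteogenesis than in chondrogenesis (3.22 ± 0.33, adjusted p = 4.35e-09), and Dusp6 3.89-fold higher (1.94, adjusted p = 7.92e-08). Map2k6 was 10.8-fold higher in adipogenesis than in osteogenesis (-2.14, adjusted p = 2.01e-06) and 11.7-fold higher than in chondrogenesis (-2.16, adjusted p = 1.72e-06).

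At 72 h, chondrogenesis differed from adipogenesis in 10 genes (38.5% against 25.5%) and from osteogenesis in 9 (34.6% against 19.6%). Dusp4 was 10.3-fold higher in chondrogenesis than in adipogenesis (3.27, adjusted p = 1.05e-13) and 10.95-fold higher than in osteogenesis (osteogenesis minus chondrogenesis -3.25, adjusted p = 1.56e-13), and Dusp10 7.67-fold (2.67, adjusted p = 5.64e-15) and 3.54-fold (-1.72, adjusted p = 1.47e-10) higher. In the other direction, Spry2 was 7.96-fold lower in chondrogenesis than in adipogenesis (-2.45, adjusted p = 3.52e-07) and 6.31-fold lower than in osteogenesis (2.20, adjusted p = 3.18e-06), and Dusp6 3.46-fold (-1.70, adjusted p = 4.80e-07) and 3.56-fold (1.78, adjusted p = 3.33e-07) lower. Fgf1 was higher in chondrogenesis than in either, by 1.35 against adipogenesis (adjusted p = 4.76e-05) and 1.29 against osteogenesis (osteogenesis minus chondrogenesis -1.29, adjusted p = 1.11e-04). Between osteogenesis and adipogenesis 4 genes passed (15.4% against 13.7%), Dusp3, Fgf9, Map2k6 and Mapk3, and 0 of the 26 by limma once sample 3 of adipogenesis was left out, where 7 had an unadjusted p under 0.05; edgeR on all samples called 3.

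**Figure D4:**
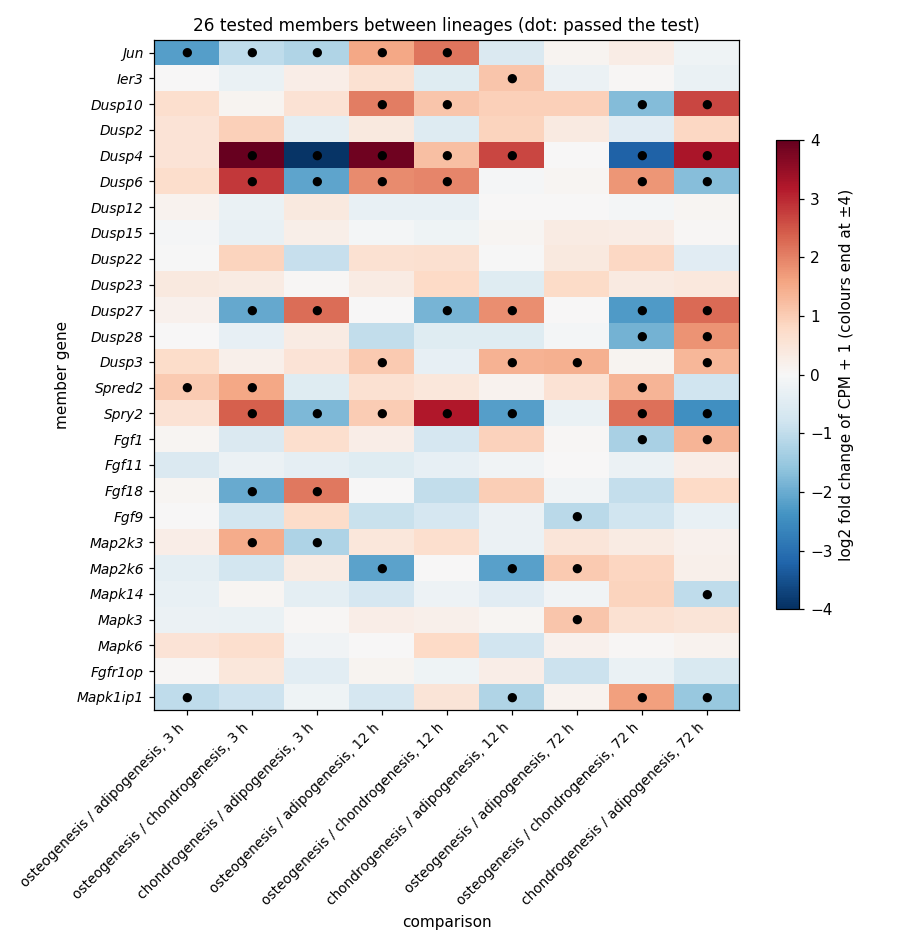
Log2 fold change of CPM + 1 between lineages at 3, 12 and 72 h (columns; colour, ending at ±4, is the first lineage named minus the second) for the 26 tested genes (rows, by role), with a dot where the test was passed. Dusp4 is dark red for osteogenesis over chondrogenesis at 3 h (4.47) and for osteogenesis over adipogenesis at 12 h (3.88), and pale between osteogenesis and adipogenesis at 3 and 72 h.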

How the data were processed

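RNA-seq values of 30 samples were used. The submitters' notes name Trimmomatic, HISAT2 and StringTie; versions and genome build are not given in the sources used here, and the labels and the paper differ on whether rRNA removal or mRNA selection preceded the libraries. The values the authors deposited are named FPKM in the files but are CPM, a gene's reads over the sample's total: in every sample 100% were whole multiples of the value of 1 read (within 0.01 reads), which gave reads and totals. Rows of the same name were summed (10803 rows, 9999 names). The members and gene lists were chosen with earlier results of these data known. The 24 comparisons were contrasts of 1 linear model over the 10 groups, fitted to log2(CPM + 1) by limma (version 3.58.1, R 4.3.3, trended eBayes), for 4363 genes that reached 1 CPM in 3 or more samples, with Benjamini-Hochberg adjustment over all of them; the design had been written for FPKM. SEs are those of the model. Genes named were those past the threshold (the study's own) against 0 h, a fixed set of classical family members, and the 3 largest changes per list. The steps were tested on simulated data. Alternatives were a pseudocount of 0.1, no filter, median-ratio scaling, a fit on 6 samples, a replicate block, edgeR 4.0.16 (quasi-likelihood) on the reads, each sample left out, and, chosen after seeing the data, 3 samples left out. Intervals are exact 95% intervals for counting error. Tables and figures used Python 3.11.15, pandas 2.3.3, scipy 1.17.1 and matplotlib 3.10.9.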

Additional observations from a re-analysis of the deposited data

Results flagged for a closer look

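In 6 cases a gene rose against 0 h in one lineage and fell in another at the same time, and the limma test of the difference between the lineages was passed. At 3 h, Dusp4 differed between osteogenesis and chondrogenesis by 4.47 on the log2 scale (3.30 and -1.16 against 0 h) and between chondrogenesis and adipogenesis by -3.93 (-1.16 and 2.76). Dusp6 differed in the same comparisons by 2.83 (1.74 and -1.08) and -2.12 (-1.08 and 1.04). At 12 h, Dusp4 differed between osteogenesis and adipogenesis by 3.88 (1.15 and -2.73), and Spry2 between osteogenesis and chondrogenesis by 3.22 (1.26 and -1.95). The adjusted p of these differences ran from 5.20e-16 (Dusp4) to 3.51e-08 (Dusp6), and the groups' samples did not overlap in any of the 6. Some calls against 0 h behind them fell short of the threshold with median-ratio scaling and edgeR. These were the rises of Dusp6 in adipogenesis at 3 h (0.79 and 0.76) and, in osteogenesis at 12 h, of Dusp4 (0.82 and 0.77) and Spry2 (0.95 and 0.95). The fall of Dusp6 in chondrogenesis at 3 h was -0.97 without its sample 1 and -0.96 without sample 3 at 0 h.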

How the results depend on the processing

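Of the 49 calls against 0 h, 31 held under every alternative, 18 were lost under at least 1, and 0 changed direction. Counts of the 26 genes called that moved by over 1.5 times were as follows. With a pseudocount of 0.1 they were 7 in osteogenesis at 12 h (4 in the reported fit), 10 in adipogenesis at 3 h (6), 8 and 5 in chondrogenesis at 3 and 12 h (5 and 3), 3 in adipogenesis between 12 and 72 h (1), and at 12 h 11, 10 and 12 between osteogenesis and adipogenesis, osteogenesis and chondrogenesis, and chondrogenesis and adipogenesis (7, 6 and 7). In fits on 6 samples they were 3 in adipogenesis at 12 h (5), 3 in osteogenesis between 3 and 12 h (5), 0 in adipogenesis between 12 and 72 h (limma; 6 had an unadjusted p under 0.05), and 1, 4 and 1 between osteogenesis and adipogenesis at 3, 12 and 72 h (3, 7 and 4). With edgeR they were 8 and 6 in chondrogenesis at 3 and 12 h, 4 in adipogenesis between 12 and 72 h and 12 between chondrogenesis and adipogenesis at 12 h. Median-ratio scaling gave 3 in adipogenesis between 12 and 72 h, and no filter gave 1 between osteogenesis and adipogenesis at 3 h. Without the 3 samples that stood apart, osteogenesis and adipogenesis differed in 1 gene at 3 h and 0 at 72 h (limma; 8 had an unadjusted p under 0.05, and edgeR on all samples called 3). With 1 sample left out at a time, the counts ran from 3 to 5 in osteogenesis between 3 and 12 h, from 1 to 2 in adipogenesis between 12 and 72 h, and between osteogenesis and adipogenesis the lowest and highest were 1 and 3 (3 h), and 0 and 6 (72 h). Apart from fewer samples in some of these fits, the cause was not tested.

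The replicate numbers are shared between groups, but in 0 of the 24 comparisons did every pair of same-numbered samples deviate together (every r over 0.1), so the numbers were not taken to pair the samples. With a replicate block all 24 counts stayed within 1.5 times, for example 9 in osteogenesis at 3 h. The depth limits genes with few reads: a floor of 3 reads was up to 0.769 CPM, and intervals for Map2k6, Fgf9, Fgf18 and Ier3 are wide.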

Other observations

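Other genes of these pathways were described by lists. Each gene named is given at its largest change against 0 h that passed, and its changes in other groups are mostly left out. Of 30 other immediate-early genes, 11 were tested. In adipogenesis at 12 h, 4 of them passed, each as a fall (5.55% of all tested genes fell there), with Cyr61, a matricellular target of serum and YAP signalling, falling from 491 ± 31.3 CPM at 0 h to 25.8 ± 18.4 CPM (-4.40 ± 0.29, adjusted p = 3.63e-13). In osteogenesis at 3 h 2 rose and 2 fell (11.7% and 6.67% of all tested genes), among them the growth arrest gene Gadd45a (-2.60, adjusted p = 2.99e-08). In chondrogenesis at 72 h 3 rose and 1 fell (11.6% and 6.37% of all). Among them was Klf10, an early TGF-beta response gene, which rose from 5.75 ± 0.89 to 37.4 ± 1.79 CPM (2.52, adjusted p = 6.39e-08). Over all samples the median of Klf10 was 16.4 CPM.

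Of 47 further genes of the Ras and ERK cascade, 11 were tested, and at most 2 passed at any time, where 545 to 952 of the 4363 tested genes passed in either direction. These calls were of the adaptor Gab2 and the ETS factor Ets2 alone. Gab2 changed most in osteogenesis at 72 h, as a rise (1.89, adjusted p = 1.34e-13). Ets2 changed most in adipogenesis at 3 h, also as a rise (1.32, adjusted p = 8.16e-09). Both rose in chondrogenesis at 72 h, where 11.6% of all tested genes rose. Gab2 fell at 3 h of osteogenesis and adipogenesis, where 6.67% and 6.42% of all tested genes fell. In chondrogenesis at 3 h and adipogenesis at 72 h 1 of them rose (13.1% and 6.19% of all). Of 24 FGF cofactors, proteoglycans and related genes, 9 were tested. In chondrogenesis at 3 h 4 rose and 1 fell (13.1% and 4.88% of all tested genes), with Flrt1, listed at 0 in the 0 h samples, at a fitted 1.61 (adjusted p = 1.10e-05). The heparan sulfate sulfatase Sulf1 changed most in chondrogenesis at 72 h, falling from 79.6 ± 15.0 to 1.37 ± 1.08 CPM (-5.17, adjusted p = 6.26e-16). Its median over all samples was 11.7 CPM, also below 0 h. The proteoglycan Sdc1 changed most in osteogenesis at 12 h, rising from 156 ± 4.02 to 1024 ± 55.6 CPM (2.71, adjusted p = 2.66e-14). Its median over all samples was 543 CPM, also above 0 h. Of 24 other growth factors and receptors, 8 were tested. Gas6, the ligand of Axl, rose in adipogenesis at 72 h, where 2 passed, both as rises against 6.19% of all tested genes (Gas6 3.19, adjusted p = 6.66e-12), Pdgfc rose in osteogenesis at 72 h (2.13, adjusted p = 1.97e-06), and Areg, a ligand of the EGF receptor, rose in adipogenesis at 3 h (1.38, adjusted p = 1.49e-05).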
